A study of Homo sapiens with 6 samples.

Results

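The genes described here are those named as G protein-coupled receptors outside the olfactory family on 2 gene lists deposited with the series, one of high and one of low expression, in SiHa cells, an established line from a cervical squamous cell carcinoma. They were chosen by gene name alone, from prefixes such as TAS2R for bitter taste receptors, HTR for serotonin receptors, GRM for glutamate receptors and GPR for numbered receptors. The rule found 137 genes among the 8942 symbols that stood on 1 list only, of which 9 were high and 128 low. Over all these symbols the high list held 50.6% and the low list 49.4%. The series profiled RNA of SiHa cells that had migrated through a transwell membrane by 10 hours after seeding (labelled MIG, 3 libraries) and of cells that had not (labelled NON MIG, 3 libraries), which the series' design describes as 3 paired sets, from cells of passages 18-23 grown with serum. All 6 libraries are of 1 cell line, so no other genetic background was sampled. Whether each set was a culture of its own is not stated in the labels.

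The lists give a symbol and an hg19 position and no expression value, and neither the rule nor the libraries behind them are stated in the labels or headers. They were taken to describe level and not a change between the fractions. The table that holds values per library names its 26006 loci by assembly ID only. No level, fold change or error of a receptor in migrated or non-migrated cells could therefore be given, and a gene's list is its only readout. The MIG libraries held 23166447 to 25662866 assigned fragments and the NON MIG libraries 18226280 to 33466924, and 7820 loci had no fragment in any library. Of 9 epithelial markers KRT7, KRT8, KRT17 and KRT18 were on the high list, KRT5 was on the low list and EPCAM, CDH1, KRT19 and TP63 were on neither. The blood cell markers PTPRC, CD3D, CD2 and HBB were all on the low list. Of other cell types KDR and TIE1 of endothelium and COL1A2 and DPT of fibroblasts were low, and PECAM1, COL1A1 and the neuronal markers SYP, SNAP25 and RBFOX3 were on neither list.

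G protein-coupled receptors cross the plasma membrane repeatedly and, when a ligand binds, activate a G protein of alpha, beta and gamma subunits. The alpha subunits of the Gs and Gi classes raise or lower cyclic AMP through adenylyl cyclase. Those of the Gq class act through phospholipase C, and those of the G12 class through exchange factors for RhoA, a regulator of the actin cytoskeleton and of cell movement. Receptor kinases and arrestins then switch the receptor off, and RGS proteins speed the return of the G protein to rest. Epithelial cells are known to respond through such receptors to lysophospholipids, prostaglandins, nucleotides and adrenaline, while most taste, trace amine and neurotransmitter receptors act in specialised sensory cells and neurons.

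Of the 137 genes 121 encode such receptors and 16 do not, so the name of the group holds for most members but not all. The distinction fell unevenly on the lists. Of the 9 genes on the high list 5 are receptors, and of the 128 genes on the low list 116 are. The 4 other genes on the high list were ADRBK1, GPR107, GPR137 and GPR172A. ADRBK1 (hg19 chromosome 11, 67033881 to 67054027) encodes a receptor kinase, now named GRK2, that phosphorylates activated receptors. GPR172A (chromosome 8, 145577795 to 145584932) encodes a riboflavin transporter, now named SLC52A2. GPR107 (chromosome 9, 132815705 to 132902448) and GPR137 (chromosome 11, 64037534 to 64056972) encode membrane proteins of the Golgi and of the lysosome that carry a receptor number. The 12 members of the low list that are not receptors were the ligand NPY, the serotonin-gated channel subunits HTR3A, HTR3B, HTR3C, HTR3D and HTR3E, and 6 antisense RNA genes.

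The 5 receptors on the high list came from 4 families, and none of them is a taste, monoamine, nucleotide or lipid receptor. GPR125 (chromosome 4, 22389007 to 22517677, minus strand) and GPR126 (chromosome 6, 142622991 to 142767403, plus strand) are adhesion receptors, a class with long extracellular parts. GPR126, now named ADGRG6, is known to bind collagen IV and to be needed for myelination by Schwann cells. GPRC5A (chromosome 12, 13043716 to 13070871, plus strand) is a class C receptor induced by retinoic acid. GPR176 (chromosome 15, 40091233 to 40213093, minus strand) is an orphan receptor that has a role in the circadian clock of mice. MC1R (chromosome 16, 89984287 to 89987385, plus strand) is the receptor for the pigment hormone alpha-MSH in melanocytes.

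The promoters of the high-list receptors are shown because the groups below are compared by their CpG content, with that of MC4R as a low-list paralog of MC1R. MC4R was chosen after its values were seen. Sequences are from RefSeq on GRCh38.p14 and run 5′ to 3′ on the gene's strand, from 250 bases before to 50 bases after a start, with every CG dinucleotide in capitals. GPR125 lies at chr4:22516017-22516316 (minus strand), GPR126 at chr6:142301757-142302056 (plus), GPR176 at chr15:39920217-39920516 (minus), MC1R at chr16:89918612-89918911 (plus) and MC4R at chr18:60372726-60373025 (minus). GPR176 has 2 starts in the table and the upstream one is shown.
GPR125: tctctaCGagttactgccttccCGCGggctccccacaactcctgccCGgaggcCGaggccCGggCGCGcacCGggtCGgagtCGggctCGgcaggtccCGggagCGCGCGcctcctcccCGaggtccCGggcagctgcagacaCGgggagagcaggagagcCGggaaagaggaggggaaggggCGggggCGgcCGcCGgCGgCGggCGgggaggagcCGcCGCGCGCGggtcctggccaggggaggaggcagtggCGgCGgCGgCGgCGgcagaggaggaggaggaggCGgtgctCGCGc
GPR126: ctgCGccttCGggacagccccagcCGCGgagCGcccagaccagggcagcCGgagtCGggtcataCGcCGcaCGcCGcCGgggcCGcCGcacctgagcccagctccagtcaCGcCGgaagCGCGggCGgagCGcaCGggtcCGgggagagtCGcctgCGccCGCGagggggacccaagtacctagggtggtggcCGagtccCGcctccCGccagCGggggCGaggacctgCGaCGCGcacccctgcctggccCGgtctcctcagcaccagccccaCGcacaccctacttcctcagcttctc
GPR176: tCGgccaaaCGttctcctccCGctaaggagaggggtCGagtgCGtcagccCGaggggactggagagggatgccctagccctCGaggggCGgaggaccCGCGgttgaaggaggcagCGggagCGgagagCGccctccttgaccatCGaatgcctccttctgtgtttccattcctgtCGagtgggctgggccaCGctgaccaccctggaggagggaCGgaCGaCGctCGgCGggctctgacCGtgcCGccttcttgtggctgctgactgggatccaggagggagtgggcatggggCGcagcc
MC1R: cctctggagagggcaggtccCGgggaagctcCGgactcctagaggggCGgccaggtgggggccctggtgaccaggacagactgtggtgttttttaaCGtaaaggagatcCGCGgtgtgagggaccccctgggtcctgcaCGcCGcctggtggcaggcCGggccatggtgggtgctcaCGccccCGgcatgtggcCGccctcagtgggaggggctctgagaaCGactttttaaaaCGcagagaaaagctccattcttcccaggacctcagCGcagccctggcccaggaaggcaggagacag
MC4R: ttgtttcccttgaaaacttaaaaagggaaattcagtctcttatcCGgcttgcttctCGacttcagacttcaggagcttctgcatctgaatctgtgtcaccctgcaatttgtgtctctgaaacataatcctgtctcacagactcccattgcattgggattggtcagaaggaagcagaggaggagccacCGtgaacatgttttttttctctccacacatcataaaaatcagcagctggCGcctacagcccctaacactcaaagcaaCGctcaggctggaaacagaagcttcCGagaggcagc
The GPR125 window holds 40 CG dinucleotides, that of GPR126 holds 36, that of GPR176 holds 24, that of MC1R holds 15 and that of MC4R holds 6. The downstream start of GPR176, not shown, has 3. MC5R, another low-list paralog of MC1R, had 32, so a low-list place did not go with few CG dinucleotides throughout the family.

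MC1R calls for care, since its listed span lies wholly inside another gene of the high list on the same strand. That gene, RP11-566K11.2, runs from 89979826 to 90002505 on chromosome 16, and TUBB3, a neuronal tubulin gene that starts just downstream of MC1R, is also on the high list. In the GENCODE 29 annotation MC1R shares its strand and position with AC092143.1 and TCF25. How fragments were divided among these genes is not stated in the labels or headers, and their part in the listing of MC1R was not tested. GPR125, GPR126, GPRC5A and GPR176 overlapped no other listed gene.

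To see how many receptors of each ligand group stood on neither list, the names were also matched to RefSeq, which holds 230 protein coding receptor genes under the same rule. Of these 5 (2.17%) were on the high list, 115 (50%) on the low list and 110 (47.8%) on neither. Among all 20056 protein coding genes the shares were 22.3%, 18.8% and 58.9%. GPR111 is a pseudogene in RefSeq and accounts for the difference from 116. Genes on neither list cannot be placed, as the list rules are not known.

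**Figure D1:**
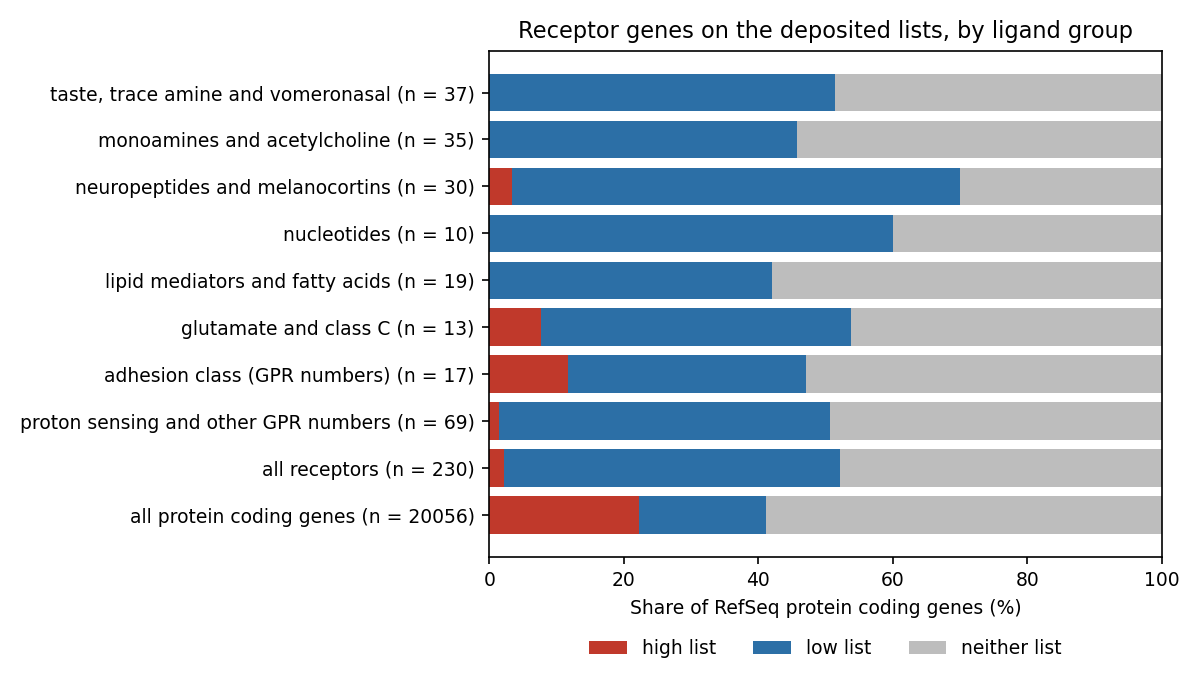
Share of RefSeq protein coding receptor genes on the high list (red), on the low list (blue) and on neither (grey), by ligand group, with n the genes in each group. Red appears in 4 of the 8 ligand groups, and reaches 2.17% over all 230 receptors against 22.3% over all protein coding genes in the lowest bar.

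Taste, trace amine and vomeronasal receptors were on the low list wherever they were listed. Of 37 such genes 0 were high, 19 low (51.4%) and 18 on neither list. These shares lay near those of all 230 receptors, of which 2.17% were high and 50% low, so they do not set the group apart. The low genes included TAS1R2, which forms the sweet taste receptor with TAS1R3, and the trace amine receptors TAAR1, TAAR2, TAAR5, TAAR6 and TAAR8, with TAAR9 on neither. VN1R2 and VN1R4, human relatives of rodent pheromone receptors, were low. Of 25 bitter receptor genes 11 were low and 14 on neither: TAS2R1, TAS2R3, TAS2R7, TAS2R9, TAS2R16, TAS2R38, TAS2R39, TAS2R40, TAS2R41, TAS2R43 and TAS2R60 were the low ones. TAS2R38 is the receptor behind inherited differences in tasting phenylthiocarbamide.

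The bitter receptors divided by chromosome. On chromosome 7 there were 7 low genes and 2 on neither list, and on chromosome 12 there were 3 low genes and 12 on neither. In GENCODE 29, 9 of those 12 share their strand and position with the salivary protein gene PRH1, as does 1 of the 3 low genes, TAS2R43. Over all receptor classes 1 of 5 high receptors, 9 of 115 low receptors (7.83%) and 18 of 109 receptors on neither list (16.5%) overlapped another protein coding gene on the same strand. Without the bitter receptors these were 1 of 5 high, 7 of 104 low (6.73%) and 8 of 96 unlisted receptors (8.33%), so most of that difference came from the bitter receptors. The shares for all protein coding genes were 10.6% for the high list, 6.51% for the low list and 16% for neither.

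Receptors for amine transmitters and acetylcholine gave 0 high, 16 low (45.7%) and 19 on neither list of 35 genes. Over all 230 receptors 2.17% were high and 50% low. The serotonin receptors HTR1A, HTR1B, HTR1E, HTR1F, HTR2A, HTR4 and HTR5A were low, as were the dopamine receptors DRD3 and DRD5 and the muscarinic receptors CHRM1, CHRM2 and CHRM3. Of 9 adrenergic receptors ADRA1A, ADRA2A, ADRB1 and ADRB3 were low. All 4 histamine receptors, HRH1, HRH2, HRH3 and HRH4, were on neither list, the only ligand family of the rule with no listed member.

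Peptide receptors were the group most often on the low list, at 20 of 30 genes (66.7%), with MC1R high and 9 on neither. The low share was 50% over all 230 receptors and 18.8% over all protein coding genes. This first place depends on counting the 8 Mas-related receptors as peptide receptors. Without them the low share would fall below the 60% of the nucleotide group. The melanocortin receptors were the only ligand family of G protein-coupled receptors under the rule with every member listed: MC1R was high and MC2R, MC3R, MC4R and MC5R were low. MC2R is the adrenal receptor for ACTH and MC4R a brain receptor that limits food intake. The neuropeptide Y receptors NPY1R, NPY2R and NPY5R were low, as was their ligand NPY. The opioid receptors OPRD1, OPRK1 and OPRM1, the somatostatin receptors SSTR3 and SSTR4, and the tachykinin receptor TACR3 were low as well. Of 8 Mas-related receptors, mostly of itch and pain neurons, 7 were low (MRGPRD, MRGPRE, MRGPRG, MRGPRX1, MRGPRX2, MRGPRX3 and MRGPRX4) and MRGPRF was on neither.

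Receptors for nucleotides and lipid mediators had no member on the high list, where only 5 of all 230 receptors (2.17%) stood. Their absence there does not set these groups apart from receptors in general. The nucleotide group was formed from the P2RY name, and the ligand of each member was not checked. P2RY1, P2RY8, P2RY10, P2RY12, P2RY13 and P2RY14 were low, and P2RY2, P2RY4, P2RY6 and P2RY11 were on neither. P2RY12 is the ADP receptor of platelets. The readthrough gene PPAN-P2RY11, which joins P2RY11 to its neighbour, was on the high list but does not match the rule. Of 19 lipid receptor genes 8 were low (42.1%, against 50% of all receptors) and 11 on neither. The low ones were LPAR4, S1PR4, the prostaglandin E receptors PTGER1, PTGER2 and PTGER3, and the fatty acid receptors FFAR1, FFAR2 and FFAR3. The 11 receptors for lysophosphatidic acid and sphingosine 1-phosphate, lipids known to drive cell migration, gave 0 high, 2 low and 9 on neither, among them LPAR1, LPAR2 and LPAR3 and S1PR1, S1PR2 and S1PR3.

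Class C receptors gave GPRC5A high and 6 low of 13 genes. The low genes included GRM3, GRM5, GRM6 and GRM7 for glutamate and GPRC6A, and GPRC5B, GPRC5C and GPRC5D, the close paralogs of GPRC5A, were on neither list. Adhesion receptors with GPR numbers gave GPR125 and GPR126 high and GPR97, GPR110, GPR111, GPR112, GPR116, GPR123 and GPR128 low. GPR56 and GPR124, paralogs of the high members, were on neither, while GPR97, GPR112, GPR123 and GPR128, also their paralogs, were among the low ones. Among proton-sensing receptors GPR4 and GPR65 were low.

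The largest group was the 65 other receptors with GPR numbers, orphans or receptors later paired with a ligand, of which GPR176 was high, 32 low and 32 on neither. The low genes included GPR6, GPR12, GPR15, GPR20, GPR21, GPR22, GPR25, GPR26, GPR31, GPR32, GPR34, GPR50, GPR55, GPR77, GPR78, GPR85, GPR101, GPR119, GPR139, GPR141, GPR142, GPR148, GPR149, GPR151, GPR152, GPR162, GPR171, GPR173, GPR174, GPR182 and GPR183. GPR183 guides B cells by oxysterols, GPR34 and GPR174 respond to lysophosphatidylserine, and GPR119 to lipid amides in the gut. GPR77 is the second receptor of the complement fragment C5a.

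Listed receptors also differed in gene structure. The median span was 121.9 kb for the 5 high receptors, with GPR126 at 144.4 kb, GPR125 at 128.7 kb, GPR176 at 121.9 kb, GPRC5A at 27.2 kb and MC1R at 3.10 kb. For the 116 low receptors it was 5.48 kb, and they ran from 0.870 kb for MRGPRG to 971.5 kb for GRM7, so the groups overlapped. Low adhesion receptors with GPR numbers were long too, from 21.8 kb for GPR97 to 136.1 kb for GPR112. Over all listed protein coding symbols the medians were 33.3 kb on the high list and 12.4 kb on the low list. The longest coding sequence in GENCODE 29 lay in 1 exon for 0 of 5 high, 78 of 115 low (67.8%) and 56 of 109 unlisted receptors (51.4%). For all protein coding genes these shares were 2.06%, 24.6% and 9.33%. Among adhesion receptors with GPR numbers it lay in 1 exon for 0 of 2 high and 0 of 6 low genes. MC1R, whose coding sequence is usually drawn as a single exon, counted 2 exons in its longest annotated form.

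**Figure D2:**
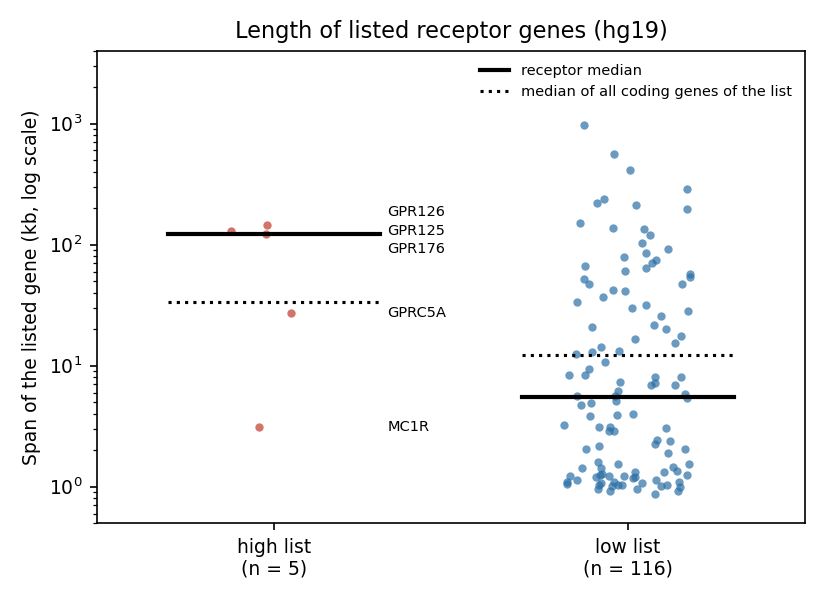
Span of each listed receptor gene in kb on a log axis, for 5 genes of the high list and 116 of the low list, with solid lines at the receptor medians and dotted lines at the medians of all coding genes of each list. The high-list median is 121.9 kb and the low-list median 5.48 kb, and MC1R at 3.10 kb lies among the short low-list genes.

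Promoter windows were in the RefSeq table for 4 of the high, 98 of the low and 81 of the unlisted receptors. GC content and the CpG ratio, the observed number of CG dinucleotides over that predicted from the C and G content, were taken as means over a gene's starts. The CpG ratio was 0.905 for GPR125, 0.854 for GPR126, 0.480 for MC1R and 0.451 for GPR176. It had a median of 0.319 over low receptors, with a range of 0 to 0.946, and of 0.550 over unlisted receptors. For all protein coding genes the medians were 0.862 on the high list, 0.303 on the low list and 0.738 on neither. The 4 high receptors thus lay within the range of the low ones. MC1R and GPR176 lay well below the median of high-list genes, GPR126 just below it and GPR125 above it. The GPR176 value is the mean of 0.720 at its upstream start and 0.183 at its downstream start, both below that median. GC content had a median of 70.2% over the high, 50.3% over the low and 63.3% over the unlisted receptors.

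**Figure D3:**
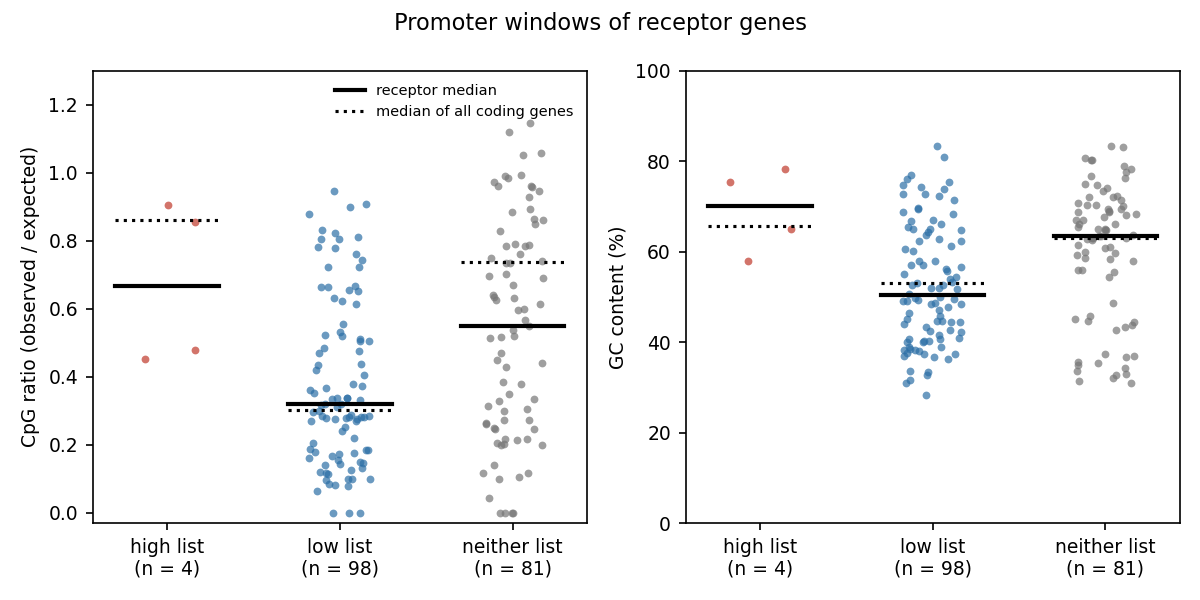
CpG ratio (left) and GC content in percent (right) of promoter windows of receptor genes, 1 point per gene, for 4 genes of the high list, 98 of the low list and 81 on neither, with solid lines at receptor medians and dotted lines at medians of all protein coding genes. Low receptors spread from a CpG ratio of 0 to 0.946 around a median of 0.319, and the high receptors fall inside that range.

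Low receptors were not alike in their promoters. The median CpG ratio was 0.161 over 17 low taste, trace amine and vomeronasal receptors, none above 0.471, and 0.593 over 14 low amine and acetylcholine receptors, none under 0.287. Low receptors with P2RY names had a median of 0.219 (6 genes) and low peptide receptors of 0.326 (18 genes). Within the melanocortin family the ratio was 0.480 for MC1R on the high list, against 0.148 for MC2R, 0.156 for MC3R, 0.368 for MC4R and 0.880 for MC5R on the low list. MC5R thus had the most CpG-rich window of the family while on the low list.

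Short motifs were searched on both strands in these windows. The GC box GGGCGG was in all 4 high receptors, in 33 of 98 low receptors (33.7%) and in 46 of 81 unlisted receptors (56.8%). Among all protein coding genes with a window the shares were 81.2% on the high list, 34.4% on the low list and 66.7% on neither, and 64.3% over all 15843. The TATA box TATAAA was in 0 of 4 high, 23 low (23.5%) and 10 unlisted receptors (12.3%). All protein coding genes gave 7.99%, 23.3% and 10.8% for the same lists and 12.4% overall. CCAAT was in 0 high, 42 low (42.9%) and 29 unlisted receptors (35.8%), and in 44%, 42.5% and 41.3% of all protein coding genes on those lists. For all 3 motifs the share of low receptors was within 1 percentage point of that of all low-list genes. The cAMP response element TGACGTCA was in 0 high, 1 low and 2 unlisted receptors, against 3% of all. No overlap between motifs was taken into account, and a match does not show a site in use.

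Many low members were neighbours. Of the 128 low members 44 stood in 17 clusters with gaps of at most 100 kb, and none of the 9 high members did. Only members on the same list were joined, so the 9 high members had few others to join with. The contrast between the lists can therefore follow from the numbers of members alone. No such share was taken over all symbols of either list, so these counts do not set the members apart from their lists. The cluster with the most members held TAAR8, TAAR6, TAAR5, TAAR2 and TAAR1 on chromosome 6 (132873832 to 132967142). Another held GPR171, P2RY14, P2RY13 and P2RY12 on chromosome 3 (150915619 to 151102600), and FFAR1, FFAR3 and FFAR2 formed one on chromosome 19 (35842445 to 35942667). Of the 44 members 6 are antisense RNA genes beside or within the receptor or channel gene they are named after. Members of a cluster share their position, so they are not independent of each other.

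A few low receptors lay inside genes of the high list. TAS2R3 lay in SSBP1, a mitochondrial DNA-binding protein gene, and GPR21 in RABGAP1, each on the same strand as its host. GPR22 lay in COG5 and GPR34 in CASK, each on the opposite strand. These 4 were the only members that overlapped a gene of the other list, and 0 of the 9 high members overlapped a gene of the low list. An overlap with a gene of either list was found for 12.1% of low receptors and 12.1% of all low-list symbols. For the high list it was 1 of 5 receptors and 11.2% of all symbols. Overlaps with a gene of either list were thus as common among low receptors as on their list, and 9 high members are too few to compare. The share lying inside a gene of the high list was not taken over all low-list symbols. The 4 receptors named above are therefore not set against their list.

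Of 180 symbols of genes that act with the receptors 37 (20.6%) were on the high list, 39 (21.7%) on the low list and 104 (57.8%) on neither. These shares lay near the 22.3%, 18.8% and 58.9% of all protein coding genes, and the sets within them differed. PLPP1 and PPAP2A name the same gene, on neither list, and were both counted. The alpha subunits GNAS, GNAI2, GNAI3, GNAQ and GNA12, which cover the Gs, Gi, Gq and G12 classes, were high, and GNAT1 of rod photoreceptors was low. GNB1, GNB2, GNG10 and GNG12 were high and GNG7, GNG8, GNG11, GNGT1 and GNGT2 low. All 7 genes of the set of exchange factors, RhoA and ROCK kinases were high: ARHGEF1, ARHGEF11, ARHGEF12, AKAP13, RHOA, ROCK1 and ROCK2. Of 14 genes for protein kinase A and CREB 7 were high, including the catalytic subunit PRKACA, and PRKACG was low.

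Among the other sets, the cyclases ADCY3 and ADCY6 were high and ADCY2 and ADCY8 low. PLCB3, ITPR2 and ITPR3 of the Gq route were high and PLCB4 low. ADRBK1 and ARRDC3 were high among receptor kinases and arrestins, with GRK1 and SAG of the retina low. Of 21 RGS genes 0 were high and 8 low, among them RGS1, RGS4 and RGS13. Ligand-making enzymes and peptide ligands gave 0 high and 13 low of 19, including TH, DBH, DDC, CHAT and HDC, which make the amines and acetylcholine. Of 15 symbols in the set for prostaglandin, lysophosphatidic acid and sphingosine 1-phosphate synthesis 4 were high, 1 low and 10 on neither. The prostaglandin E synthases PTGES, PTGES2 and PTGES3 were high, and HPGD, which degrades prostaglandins, was low. The cyclooxygenase genes PTGS1 and PTGS2 were on neither list.

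**Figure D4:**
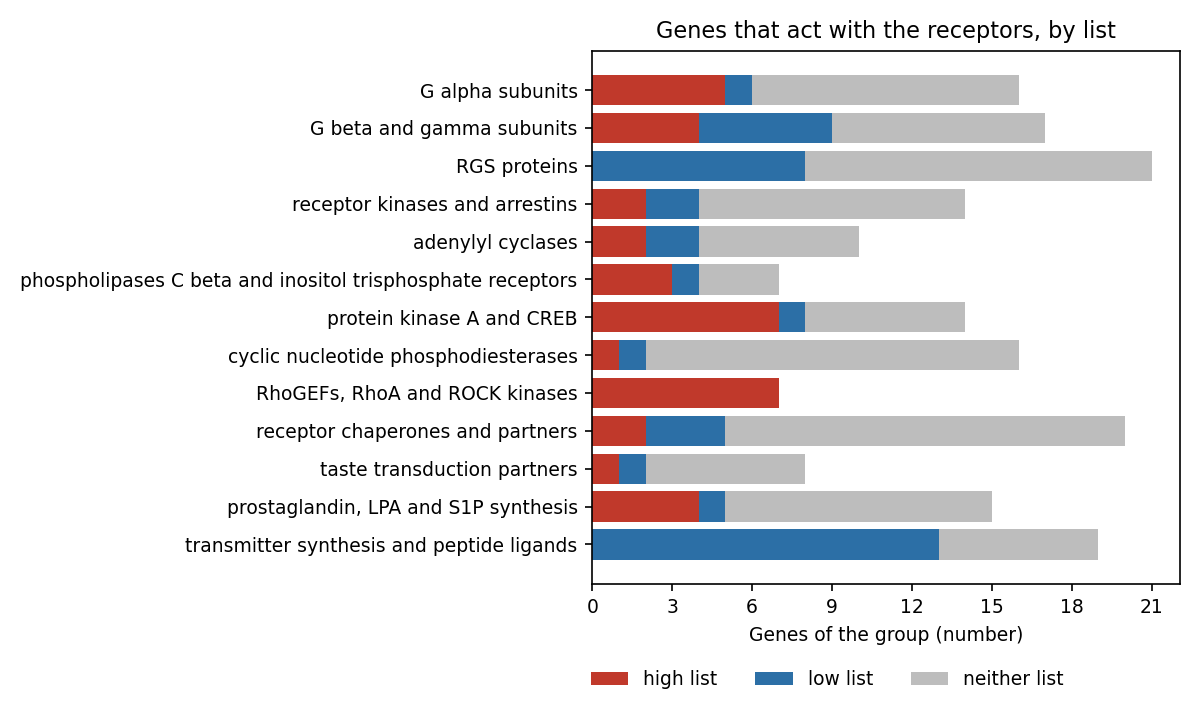
Number of gene symbols on the high list (red), on the low list (blue) and on neither (grey) in each group of genes that act with the receptors. The group with RhoGEFs, RhoA and ROCK kinases has all 7 genes on the high list, while RGS proteins and transmitter synthesis and peptide ligands have none there.

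Receptors outside the name rule served as a comparison, with 164 genes such as chemokine, frizzled, secretin-class and peptide hormone receptors. Of these 5 (3.05%) were high, 80 (48.8%) low and 79 on neither, shares near the 2.17% and 50% of the receptors under the rule. The high ones were CXCR5, FZD6, CELSR1, CELSR3 and CD97, named after their values were seen. CXCR5, a B cell chemokine receptor, overlapped the high-list gene BCL9L on the opposite strand. CELSR1, CELSR3 and CD97 are adhesion receptors, as are GPR125 and GPR126. Across both name sets the adhesion class gave 5 high of 17 listed genes (29.4%) and the other receptors 5 high of 189 (2.65%). The high share of the adhesion class was below the 50.6% of all listed symbols. No split of members between the lists was tested, so these shares are a description. By name 367 olfactory receptor genes were listed, 0 high and 367 low.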

How the data were processed

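Per the submitters' processing notes the tools were CASAVA 1.8.2, TopHat2, Cufflinks 2.2.1 and Cuffdiff with hg19, with no settings. Per the file headers, the deposited table gives estimated counts of fragments per locus and library, and the deposited lists give symbols and positions. The estimated counts were used for depth only. Lists were read with pandas 2.3.3 in Python 3.11.15. The 4 symbols on both lists were left out, and 17 repeated rows of the low list were counted once. Members were matched by name, and 13 of 137 through a RefSeq synonym. Of 8942 listed symbols 8735 matched RefSeq. Ligand groups were assigned by hand from gene names and textbook roles, and partner genes from textbook roles. All high members are named with positions and low receptors by family. Promoters come from RefSeq (GRCh38.p14), gene structures from GENCODE release 29, and no coordinates were converted between builds. The members and lists were chosen with earlier results of these data known. Some members are not reported here. No differential test was run, since the table pairs no ID with a gene name. The planned choice of the annotation class used RefSeq types, as the annotation columns of the lists are empty.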

Additional observations from a re-analysis of the deposited data

How the results depend on the processing

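Counts depended on what was counted as a member. Of 9 high members 5 were left when receptors alone were counted, and 17 were found when the rule was also matched through older symbols, which adds genes of other kinds such as CCT6A and UMPS. The low members were 128, and 116 and 154 under these alternatives. The share of listed members on the high list was 6.57%. It was 4.13% for receptors alone, 7.63% without taste, trace amine and vomeronasal genes, 8.18% with neighbours counted once and 6.92% for protein coding members. Matching through older symbols gave 9.94%, an alternative for this share that was chosen after seeing the data. The share of all listed symbols on the high list was 50.6%, and 54.1% for protein coding symbols and 54.4% with LINC, defensin, keratin associated and olfactory receptor genes left out. Promoter medians moved by less than the spread between genes when the 150 bases before the start were used. No paired analysis was possible because the members have no values per library, and no library could be left out for the same reason. The lists hold no depth, so a gene on the low list is not shown to be absent.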

Other observations

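The nearest listed gene that is no member was on the high list for 5 of 5 high receptors and for 48 of 116 low receptors (41.4%). Over all listed symbols this share was 76.7% for the high list and 28.1% for the low list. Only members were left out as neighbours, so other genes kept neighbours of their own family while receptors did not. The shares of receptors and of all symbols are therefore not like measures. The nearest such gene to MC2R and to MC5R was the same one, RNMT, which is on the high list. GPR125 had its nearest one, DHX15, at 2011 kb, the farthest of the high receptors.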
